A study of Mus musculus with 2 samples.

Results

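Dividing cells of the interfollicular epidermis, the sheet of skin between the hair follicles, were described in single-cell RNA-seq of mouse dorsal skin as barcodes that carried both cell cycle and epidermal transcripts. A barcode was a member when it held a unique molecular identifier (UMI, 1 captured RNA molecule) of at least 3 of 7 cell cycle genes, Mki67, Top2a, Knl1, Aspm, Kif14, Neil3 and Cenpf. It also needed at least 2 of 6 epidermal genes, Cdh13, Il20ra, Col7a1, Adamts14, Slco2a1 and Krt10, and no UMI of 4 hair genes, Hoxc13, Msx2, Edar and Shh. The members numbered 2662 of 62289 barcodes that had 200 to 8000 genes and at most 10% mitochondrial UMIs. Of these, 1588 came from the control library and 1074 from the library of testosterone propionate (TP) treated skin. The members were thus chosen by measured UMIs of these 17 genes, so their levels in the members are a description.

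Both libraries came from male C3H/HeN mice aged 7 weeks when dosing began and 9 weeks when skin was taken, and each pooled the skin of 15 animals into 1 library. The TP mice received 0.5 mg TP per day by injection under the skin, as a model of androgenetic alopecia, and the control mice received vehicle. A further condition with an antibody to CXCL12 was not analysed here. With 1 library per condition there was no replicate check, so no p-value, standard error or test is given, and intervals are 95% intervals that cover counting error only. Animals, preparation, library and treatment cannot be told apart in any difference between control and TP.

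The epidermis is renewed by basal keratinocytes, which express keratins 5 and 14, divide on the basement membrane and give rise to spinous cells with keratins 1 and 10 and then to granular cells. A dividing basal cell passes through S phase, when replication factors and histones are made, and then through G2 and mitosis, when proteins of the spindle and chromosomes accumulate. Outside the epidermis, the matrix of a growing hair bulb is a second large pool of dividing epithelial cells in skin.

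The control library held more barcodes and was shallower. Its 42244 kept barcodes had a median of 2162 UMIs, against 5166 UMIs in the 20045 kept TP barcodes. The median member held 3913.5 UMIs in control and 8499 UMIs in TP, and all members together held 8264191 and 12301911 UMIs. The libraries shared 303 barcode sequences, and 0 barcodes were members in both. A neighbour-based doublet caller set to mark 7.5% of barcodes marked 32.1% of control members and 22.3% of TP members, which were kept and left out in an alternative.

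The label of interfollicular epidermal cells held only for some of the members. When the 2662 members were clustered without the genes of the rule, they fell into 14 clusters with different leading genes. Cluster 5 (227 members), led by histone genes, had a Krt14 level of 11576 CPM (a gene's UMIs as a share of all UMIs of the class, scaled to 1000000), and cluster 8 (132 members), led by the mitotic genes Ube2c, Cdc20 and Ccnb1, had 14071 CPM. Both clusters joined high basal keratins with cell cycle genes. Cluster 7 (172 members) was led by Ifi27l2a, Il33 and Fosl1, with Krt15, Krt5 and Krt14 also among its 10 leading genes and 10124 CPM of Krt14, but it had no cell cycle gene among those 10 and 343 CPM of Top2a. Cluster 3 (327 members), led by Sox6 and the division genes Diaph3, Cit and Ect2, had 4681 CPM of Krt14 and 2411 CPM of Cdh13. It also had the highest Malat1 level of the 14 clusters, 42821 CPM, at medians of 2433.5 UMIs in control and 3393 UMIs in TP.

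Other clusters were led by genes of other skin compartments. Cluster 2 (495 members) had as leading genes Sox5, Krt71, Krt25 and Cux1, of which Krt71 and Krt25 are keratins of the inner root sheath, and its Krt14 level was 1669 CPM. Cluster 4 (240 members) was led by Dcc, Corin, Fgf10 and Vcan, of which Corin and Fgf10 are known from the dermal papilla, and 208 of its members came from control. Cluster 1 (514 members) had Hrnr, Krt77, Krt10 and Flg, genes of differentiating layers, and also Cd74 of antigen-presenting cells, among its leading genes and held 224 CPM of Mki67. Cluster 9 (101 members) had Cldn10 and Ccnd2 among its leading genes and held no Krt14-high member, and cluster 10 (88 members) was led by Cdh6, Ccser1 and Kcnh1. The doublet caller marked 77 of 82 control and 2 of 6 TP members of cluster 10, 124 of 208 and 17 of 32 of cluster 4, 203 of 439 and 17 of 56 of cluster 2, and 62 of 272 and 140 of 242 of cluster 1. The remaining clusters were led by the upper follicle genes Krt79 and Krt17 (215 members), by Lgr5, Tbx1 and Lhx2 (79), by the collagens Col1a2 and Col3a1 (35), by the pigment genes Pmel and Mlana (23) and by Ccl21a and Pecam1 (14). In the collagen cluster the doublet caller marked 0 of 11 control and 16 of 24 TP members. With 1 library per condition, a cluster drawn mostly from 1 library may reflect that library, so cluster sizes were not compared.

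**Figure D1:**
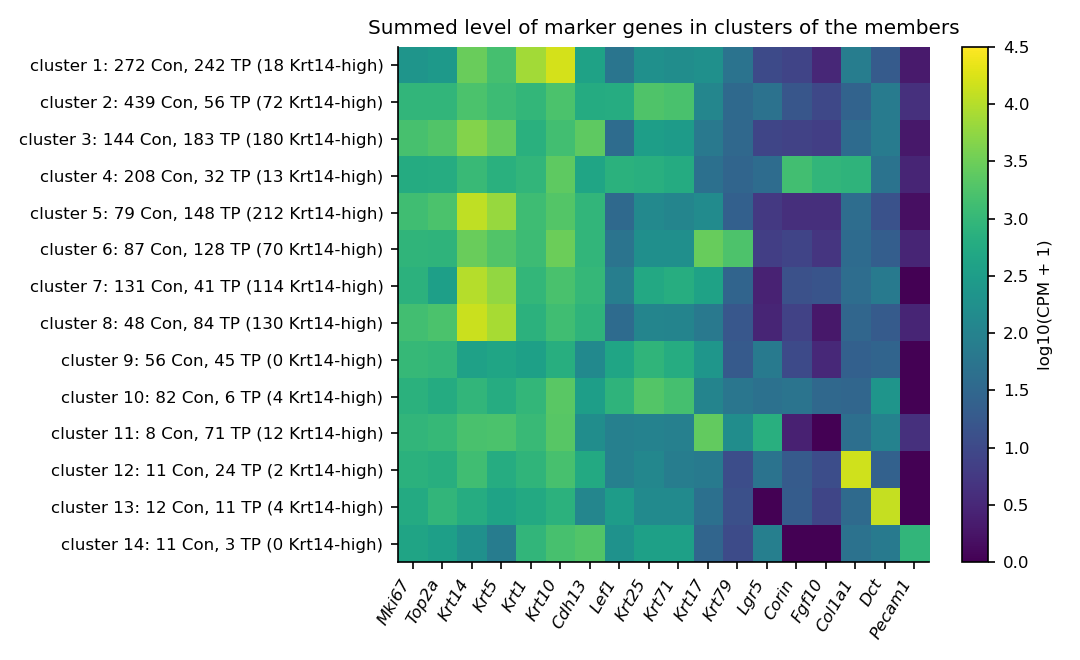
Each row is a cluster of members, with its number of control (Con), TP and Krt14-high members, each column is a gene, and the colour gives the level summed over both libraries as log10(CPM + 1). Clusters 5, 7 and 8 hold the brightest Krt14 and Krt5, whereas Krt25 and Krt71, Corin and Fgf10, Krt17 and Krt79, Col1a1 or Dct stand out in others.

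Many members lay close to the thresholds of the rule. The members with exactly 3 cycle genes numbered 575 in control and 210 in TP, beside 1295 and 582 otherwise equal barcodes with 2. Mki67 was at 287 CPM in control and 108 CPM in TP just outside this threshold, at 402 and 213 CPM just inside it, and at 903 and 795 CPM in members with 4 or more cycle genes, an order that the rule itself sets. The members with exactly 2 epidermal genes numbered 840 and 312, beside 4773 and 667 barcodes with 1. Krt14, which the rule did not use, was at 258 CPM in control and 609 CPM in TP with 1 epidermal gene, 1477 and 2089 CPM with exactly 2, and 3680 and 5744 CPM with 3 or more. A Krt10 UMI was present in 95.4% of control members and 99.7% of TP members, and in 79.0% of the 195 control and 100% of the 77 TP barcodes that carried at least 3 T cell genes and should lack keratins. Krt10 therefore counted toward membership in nearly every barcode, and 800 control and 311 TP members rested on Krt10 and exactly 1 other epidermal gene.

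To describe the members with high basal keratin levels, a narrower class was added after the data were seen. It kept members in which Krt14 and Krt5 together made up at least 0.5% of UMIs and exceeded Krt1 and Krt10 together. These Krt14-high members numbered 373 in control and 458 in TP, with medians of 3625 and 7020 UMIs and totals of 1607092 and 3671909 UMIs. The doublet caller marked 22.5% of them in control and 7.21% in TP. Barcodes with the same keratin levels, at least 2 epidermal genes and no UMI of any cycle or hair gene served as resting Krt14-high barcodes, 559 in control and 1646 in TP.

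Among barcodes chosen on them, the cell cycle genes of the rule were at similar levels in control and TP. Mki67, the antigen used to score dividing cells, was at 733 CPM in control and 666 CPM in TP over all members, and at 1174 and 1218 CPM in the Krt14-high members. Top2a, the topoisomerase that untangles sister chromosomes, was at 1356 and 1412 CPM in the Krt14-high members. Cenpf, a kinetochore protein, was at 787 and 827 CPM there. The Krt14-high TP to control ratio was 1.04 for Mki67 (0.983 to 1.10) and 1.04 for Top2a (0.990 to 1.10). These ratios describe the selected barcodes only. Each member had to hold UMIs of at least 3 of these genes, at unequal depth (Krt14-high medians of 3625 UMIs for control and 7020 UMIs for TP). Whether TP changed the level of these genes was therefore not tested.

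The less abundant rule genes, under the same limit, lay close together as well, with Kif14 as the widest gap. In the Krt14-high members Knl1, a kinetochore scaffold, was at 313 CPM in control and 321 CPM in TP. Aspm, a spindle pole protein, was at 246 and 248 CPM, and Neil3, a DNA glycosylase, was at 94.0 and 109 CPM. Kif14, a kinesin of cytokinesis, was at 105 CPM in control and 80.9 CPM in TP.

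Transcripts of the cycle genes also occurred in barcodes with T cell or melanocyte genes. In control, T cell-marker barcodes held 379 CPM of Mki67 and barcodes with at least 3 melanocyte genes held 460 CPM. In TP the same classes held 166 and 223 CPM. The members were chosen on these genes, so their higher levels were set by the rule. The doublet caller marked 16.2% of control and 6.74% of TP melanocyte-marker barcodes, and 4.10% and 9.09% of T cell-marker barcodes. Dividing T cells or melanocytes, doublets and free RNA cannot be told apart in these classes.

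**Figure D2:**
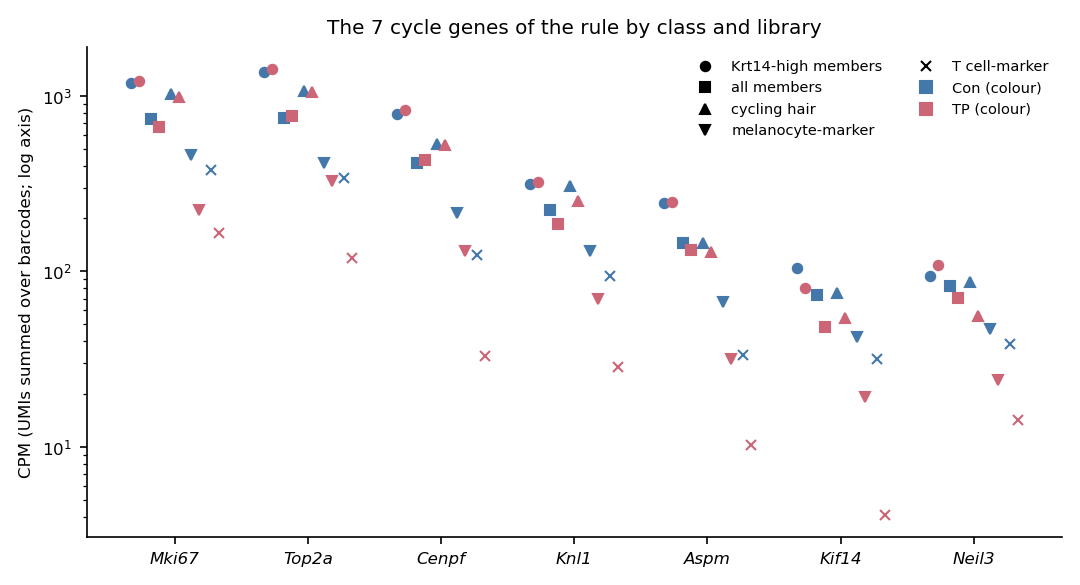
Levels of the cycle genes of the rule in CPM on a log axis, with 1 point per class of barcode (marker shape) and library (blue for control, Con, and red for TP). In Krt14-high members Mki67 was at 1174 CPM in control and 1218 CPM in TP, and in T cell-marker barcodes, which were not chosen on it, at 379 and 166 CPM.

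Many mitotic genes share short promoter elements, among them the CHR element, read here as TTTGAA, and the CCAAT box, read as CCAAT. Promoter bases just before the annotated start are shown for these elements, for both marker genes of the rule, Mki67 and Top2a, and for the leading genes of the mitotic cluster, Ube2c, Cdc20 and Ccnb1, the last of which has no TTTGAA in its window. The sequences are from RefSeq on GRCm38.p6, trimmed to bases outside the gene, and read 5′ to 3′ on the strand of the gene. They come from chr7:135716451-135716529 (minus strand) for Mki67, chr11:99024200-99024339 (minus) for Top2a, chr2:164769779-164769928 (plus) for Ube2c, chr4:118437344-118437493 (minus) for Cdc20 and chr13:100786487-100786636 (minus) for Ccnb1. Capitals mark TTTGAA and CCAAT or their reverse complements TTCAAA and ATTGG.
Mki67: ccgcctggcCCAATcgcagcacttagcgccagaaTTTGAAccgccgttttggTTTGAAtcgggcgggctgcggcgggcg
Top2a: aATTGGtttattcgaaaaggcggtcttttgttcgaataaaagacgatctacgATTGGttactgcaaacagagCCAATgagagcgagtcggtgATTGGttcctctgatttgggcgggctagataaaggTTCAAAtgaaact
Ube2c: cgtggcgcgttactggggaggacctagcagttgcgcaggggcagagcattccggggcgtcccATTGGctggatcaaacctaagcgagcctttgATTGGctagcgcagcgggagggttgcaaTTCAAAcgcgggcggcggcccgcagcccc
Cdc20: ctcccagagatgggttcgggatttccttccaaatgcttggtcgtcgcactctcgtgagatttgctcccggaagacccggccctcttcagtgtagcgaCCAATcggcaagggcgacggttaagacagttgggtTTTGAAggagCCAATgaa
Ccnb1: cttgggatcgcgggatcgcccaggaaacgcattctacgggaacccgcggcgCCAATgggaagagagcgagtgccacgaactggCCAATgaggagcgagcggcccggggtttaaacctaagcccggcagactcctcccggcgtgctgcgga

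Within the 250 bases before the start, TTTGAA on either strand was present in 16.3% of the 27025 gene symbols with a window. It was present in 3 of the 7 cycle genes of the rule, Mki67, Top2a and Kif14, and in 17 of 48 mitosis genes with a window (35.4%). It was present in 4 of 31 DNA replication genes (12.9%) and in 0 of 9 genes of basal keratins and adhesion. CCAAT was present in 34.5% of all windows, in 33 of the 48 mitosis genes, in 21 of the 31 replication genes and in 1 of the 9 basal genes. A match of one motif can share at most an end base with a match of the other, and a match describes the letters in the window only.

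Beside the rule genes, other cell cycle genes separated the Krt14-high members from the resting Krt14-high barcodes. The 5 with the largest ratio after the rule genes were Cit, Ckap2, Ect2, Iqgap3 and Ndc80, which act in cytokinesis, the spindle or the kinetochore. Ect2 was at 223 CPM in control and 244 CPM in TP members, and at 10.3 and 4.61 CPM in resting barcodes. Cit was at 149 and 153 CPM in members against 5.79 and 3.08 CPM. Over all members the corresponding genes were Depdc1b, Iqgap3, Fancd2, Efcab11 and Spag5. The classes were split on cycle genes, so these values describe the split.

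Thinned to 2000 UMIs each, the Krt14-high barcodes kept a wide range of cycle transcripts. A list of 61 mitosis genes gave a median of 18 UMIs in 334 control members (10th to 90th percentile 2 to 42) and 23 UMIs in 452 TP members (6 to 39), and 39 and 6 shallower members were left out. The resting barcodes had medians of 2 and 1. A list of 40 DNA replication genes gave a median of 3 UMIs in control (1 to 11) and 4 UMIs in TP (0 to 15). The ranges of control and TP overlapped over most of their width. Members were chosen on cycle genes before thinning, so this overlap describes the selected barcodes.

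The share of members was higher or lower in TP depending on the denominator. Members made up 3.76% (3.58 to 3.94) of kept control barcodes and 5.36% (5.05 to 5.68) of kept TP barcodes, a ratio of 1.43 (1.32 to 1.54). Among barcodes with at least 2 epidermal genes and no hair gene, members made up 21.5% (20.6 to 22.5) of 7382 in control and 11.99% (11.3 to 12.7) of 8960 in TP, a ratio of 0.557 (0.515 to 0.602). When barcodes with at least 2000 UMIs were thinned to that number and shallower ones left out (23326 of 42244 control and 17042 of 20045 TP barcodes remained), the first pair became 3.02% and 3.15%, and the second 16.6% and 9.14%. Thinned to 5000 UMIs, with 5780 control and 10260 TP barcodes, the first pair turned to 8.46% and 5.56%, a ratio of 0.657 (0.581 to 0.743).

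For Krt14-high barcodes without a hair gene, at least 3 cycle genes were found in 427 of 2117 control barcodes (20.2%, 18.5 to 21.9) and 480 of 3155 TP barcodes (15.2%, 14.0 to 16.5). Thinned to 2000 UMIs, with 1528 control and 2814 TP barcodes deep enough, the shares were 18.0% (16.1 to 20.02) and 13.1% (11.9 to 14.5). At least 3 cycle genes were also found in 15.9% of T cell-marker barcodes in control and 7.79% in TP, and in 36.9% and 21.9% of melanocyte-marker barcodes, at median depths of 1724 and 2472 UMIs for the T cell-marker class and 2722 and 4212.5 UMIs for the melanocyte-marker class. At the same thinned depth the T cell-marker shares were 20.8% (15 of 72, 12.2 to 32.0) and 8.16% (4 of 49, 2.27 to 19.6), and the melanocyte-marker shares 29.0% (115 of 397, 24.6 to 33.7) and 11.0% (16 of 146, 6.395 to 17.2). At that depth the control share of Krt14-high barcodes was below the melanocyte-marker share, and its interval and that of TP overlapped the other intervals of the same library. Unlike the Krt14-high barcodes, the marker classes were not filtered on hair genes, so these shares are of unlike sets. The gap between control and TP was not read as a difference in division, and its cause was not tested. With at least 4 cycle genes required, the shares were 13.8% and 13.3%, a ratio of 0.967 (0.831 to 1.13).

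**Figure D3:**
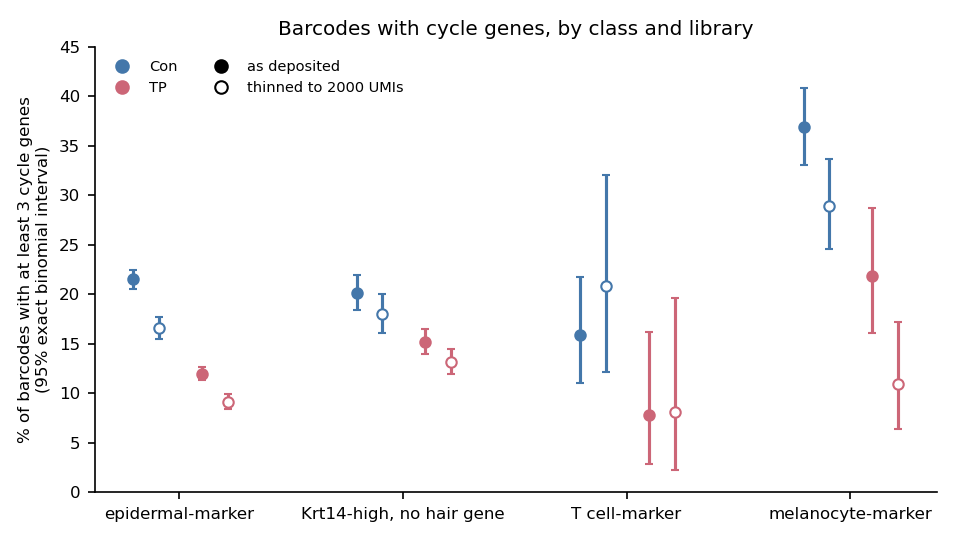
Shares of barcodes with the cycle genes in control and TP, in percent of each class, as deposited (filled) and thinned to 2000 UMIs (open), with exact 95% binomial intervals as error bars. As deposited, Krt14-high barcodes stand at 20.2% and 15.2%, and the T cell-marker barcodes beside them at 15.9% and 7.79%. The T cell-marker and melanocyte-marker classes were not filtered on hair genes.

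The comparison of TP with control across all members was led by stress keratins and by genes of other compartments. Of 12255 genes that reached 50 UMIs when the libraries were added up, 348 had a TP level 2-fold or more above control (2.84%). A level 2-fold or more below control was found for 881 (7.19%), and the median log2 ratio was −0.17. A gene could pass this filter through 1 library alone, more easily through TP with its 12301911 UMIs against 8264191. Counts of higher or lower genes in short lists therefore depend on the filter. With TMM scaling, which centres the bulk of genes, the split was 585 higher and 583 lower and the median moved to 0.07, so ratios are set beside the median. The largest TP to control ratios included Krt6b, with 1 UMI in control and 471 UMIs in TP (ratio 316, 56.5 to 12524), and the stress keratins Krt16 (6.29 to 232 CPM) and Krt6a (4.36 to 80.7 CPM). Tnmd, which had 0 UMIs in control and 158 in TP, was at least 35.4-fold higher against a floor of 3 counts in the control library.

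The genes with the largest ratios included marker genes of cell types other than keratinocytes. Lyz2, a myeloid gene, was at 0.968 CPM in control and 11.8 CPM in TP, and Mlana, a melanocyte gene, at 16.0 and 148 CPM. Of 7 fibroblast markers compared 6 were 2-fold higher in TP, of 6 myeloid markers 6, and of 6 melanocyte markers 5. Markers low in control could pass the UMI filter through TP alone, as Lyz2 did with 8 and 145 UMIs. Without called doublets 5 of the 7 fibroblast markers were 2-fold higher, with a median log2 ratio of 1.75 in place of 2.06. With each barcode's own CPM averaged, so that deep barcodes weigh no more than others, 2 of the 6 melanocyte markers were 2-fold higher, with a median log2 ratio of 0.66 in place of 2.16. Of 5 papilla markers compared 4 were 2-fold lower in TP, with Fgf10 at 171 and 7.07 CPM, and so were all 6 inner root sheath markers compared. Rspo4, a WNT potentiator of the papilla, was lowest relative to control, at 32.1 and 0.650 CPM. The exclusion of barcodes with a hair gene UMI is a stricter filter in the deeper TP library. The part of such cells and of this filter in these ratios was not tested.

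In the Krt14-high members fewer genes differed. Of 9010 genes, 130 stood 2-fold or more above control (1.44%) and 217 below it (2.41%), with a median log2 ratio of −0.08, and with TMM scaling the split was 175 higher and 159 lower and the median 0.04. The class was also drawn unequally from the clusters. Cluster 5, led by histone genes, held 71 of its 373 control and 141 of its 458 TP members, cluster 8, led by mitotic genes, 46 and 84, cluster 7, with low Top2a, 77 and 37, and cluster 2, with inner root sheath keratins, 64 and 8. Cluster 6, led by Krt79, Defb6 and Krt17, with Fst and Egr2 also among its leading genes, held 16 and 54. Cluster 3, with the highest Malat1 level, held 69 and 111, and cluster 11, led by Lgr5, held 1 and 11. The part of this make-up in the ratios of the class was not tested. Levels of markers of other cells differed between the libraries as well. The fibroblast markers summed to 113 CPM in control and 795 CPM in TP, and upper follicle markers to 434 and 1543 CPM. Inner root sheath markers summed to 1663 and 389 CPM and hair matrix markers to 251 and 49.6 CPM. Members had to hold no UMI of 4 hair genes, a stricter filter in the deeper TP barcodes. Its part in these lower sums was not tested. Melanocyte markers summed to 179 and 75.2 CPM and myeloid markers to 3.11 and 56.9 CPM, and T cell and endothelial markers were at most 4.98 and 3.73 CPM. Of 6 outer bulge markers compared, Lgr5, Lhx2 and Sox9 were 2-fold higher in TP (median log2 ratio 1.14), and all 3 papilla markers compared were 2-fold lower (−2.19). Without called doublets the median log2 ratio of the 4 fibroblast markers compared went from 3.34 to 1.37, and 3 of the 4 stayed past 2-fold. Ratios in the T cell-marker and melanocyte-marker barcodes together, 805 in control and 255 in TP, are set beside the lists. Of 10180 genes compared in them, 493 were 2-fold higher in TP and 1162 lower, with a median log2 ratio of −0.20. In these barcodes, own expression, doublets and free RNA were not separated.

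**Figure D4:**
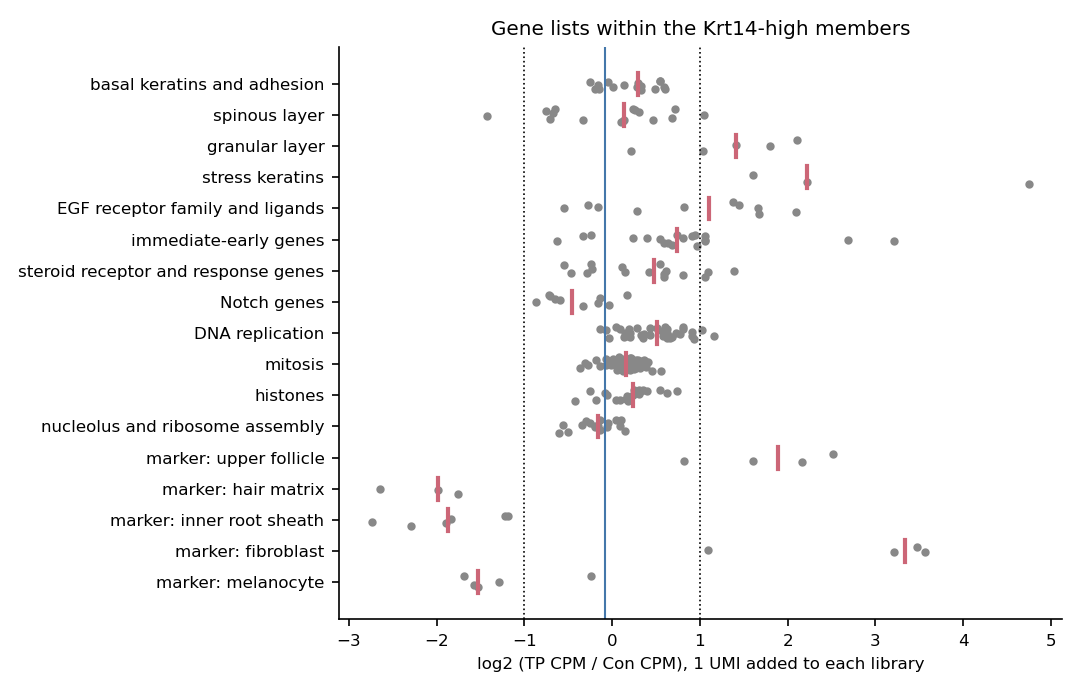
Log2 ratios of TP over control (Con) in the Krt14-high members, with 1 grey point per gene, a red bar at the median of each list, a blue line at the median of all genes and dotted lines at 2-fold. The DNA replication list is centred at 0.51 and mitosis at 0.15, against −0.08 for all genes, in members chosen on cycle genes. The fibroblast markers have the highest median of the lists shown.

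Most genes of DNA replication had ratios above 0 that stayed short of 2-fold, and mitosis genes lay closer to the centre. The class was chosen on cycle genes at unequal depth, so the ratios of both lists describe the selected barcodes. Whether TP changed the level of these genes was not tested. Of 40 replication genes 2 were 2-fold higher and none 2-fold lower, the median log2 ratio was 0.51, and 37 had a ratio above 0. Rrm2, a subunit of ribonucleotide reductase, was at 47.3 CPM in control and 107 CPM in TP (2.26-fold, 1.76 to 2.93), and Mcm3, a subunit of the replicative helicase, at 36.7 and 75.7 CPM (2.06-fold, 1.55 to 2.78). Pcna, the sliding clamp, was at 109 and 205 CPM, short of 2-fold. In the T cell-marker and melanocyte-marker barcodes the replication median was −0.12, against −0.20 for all genes there. All 3 named genes had TP levels above control there too, Pcna at 62.6 and 137 CPM, Mcm3 at 27.8 and 51.2 CPM and Rrm2 at 30.99 and 39.1 CPM. In cycling hair barcodes (defined below) the replication median was 0.41, against −0.17 for all genes, and 32 of 40 replication genes had ratios above 0. In the Krt14-high members the median of the list was between 0.40 and 0.65 in the alternatives run for it. Mcm3 fell short of 2-fold in some of them (0.87 on the log2 scale without called doublets), and Rrm2 in members thinned to 3000 UMIs (0.87).

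Of the 61 mitosis genes 0 were past 2-fold in either direction, and their median was 0.15, between 0.04 and 0.28 over the alternatives. In the T cell-marker and melanocyte-marker barcodes 10 of 59 were 2-fold lower, with a median of −0.41. Over all genes there, 1162 of 10180 were 2-fold lower, with a median of −0.20. Ube2c, the ubiquitin-conjugating enzyme of mitotic exit, was at 325 CPM in control and 375 CPM in TP. Cdc20, an activator of the same pathway, was at 157 and 173 CPM. Of 21 histone genes 0 were past 2-fold, with a median of 0.24 that became −0.05 when members were thinned to 3000 UMIs, and the histone median in the T cell-marker and melanocyte-marker barcodes was 0.34.

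None of the 16 genes of basal keratins and adhesion passed 2-fold, and 11 had ratios above 0 and 5 below. Their median was 0.29, against −0.28 in the T cell-marker and melanocyte-marker barcodes, and from 0.19 to 0.42 over the alternatives. Krt14 was at 8035 CPM in control and 11284 CPM in TP (1.40-fold), Krt5 at 4949 and 6198 CPM (1.25-fold), and the integrin subunit Itga6 at 483 and 728 CPM (1.51-fold). Krt15 was at 1916 and 1675 CPM (0.874-fold), and Col17a1, a hemidesmosomal collagen, had a ratio of 1.00. Krt14 and Krt5 chose the class, so their levels are a description. The rule gene Cdh13, a cadherin without a cytoplasmic domain, was at 1014 and 1025 CPM.

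Of the stress keratins 3 were compared and all were 2-fold higher in TP, not all of them above the level in T cell-marker and melanocyte-marker barcodes. Krt6a passed the UMI filter through its 491 TP UMIs, so the count of higher genes depends on the filter. Krt6a, a keratin induced in wounded epidermis, was at 4.36 CPM in control (7 UMIs) and 134 CPM in TP (30.7-fold, 14.8 to 76.8), against 3.51 and 21.9 CPM in the T cell-marker and melanocyte-marker barcodes. Defb6, a beta-defensin, was at 14.3 and 282 CPM (19.7-fold), and at 39.8 and 20.5 CPM there. Krt16 was at 13.7 and 66.5 CPM, against 1.17 and 99.6 CPM in those barcodes, and the part of RNA from other cells in its ratio was not tested. Krt17 was at 213 and 650 CPM but its direction turned, to −0.91 on the log2 scale, when Krt14 and Krt5 had to make up at least 1% of UMIs. Without barcodes in which upper follicle markers reached 0.1% of UMIs, Defb6 fell short of 2-fold (0.69 on the log2 scale) and Krt6a did not (4.44).

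Of the 14 alarmin and antimicrobial genes listed, 3 had enough UMIs to be compared and all were past 2-fold, Defb6, Sprr1a and Sprr1b. The filter adds the UMIs of both libraries and TP held more, so a gene low in control could enter only through TP. That all genes compared were higher therefore depends on the filter and is not read as a result about the list. Sprr1a fell short of 2-fold in several alternatives (0.23 on the log2 scale in barcodes of 5000 to 20000 UMIs, 0.34 with at least 4 cycle genes), and without upper follicle barcodes 0 of the 2 genes then compared passed. In the T cell-marker and melanocyte-marker barcodes Sprr1a was at 6.72 and 193 CPM. Sprr1b was at 2.49 and 14.2 CPM, below the 81.0 CPM of the T cell-marker and melanocyte-marker barcodes in TP. Granular layer genes, under the same limit, were also higher, 4 of 5 compared past 2-fold with a median of 1.41. Their median in the T cell-marker and melanocyte-marker barcodes was 2.81. Of 16 spinous genes, Calml3 was 2-fold higher and Fabp5, a fatty acid carrier, lower, from 780 to 291 CPM. The spinous median was 0.13, in a class in which Krt14 and Krt5 together had to exceed Krt1 and Krt10. Over all members, without that condition, the spinous median was 0.53, with Krt1 and Dmkn past 2-fold. In the T cell-marker and melanocyte-marker barcodes 6 of 16 spinous genes were 2-fold higher with a median of 0.82, beside 493 of 10180 and −0.20 over all genes. Calml3 was at 35.1 and 70.3 CPM there. Without upper follicle barcodes no spinous gene was 2-fold higher.

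Among genes of the EGF receptor family, ligands stood higher in TP. Of 10 genes of the family compared, 5 were past 2-fold, all ligands, and the median was 1.10. In the T cell-marker and melanocyte-marker barcodes 4 of 10 were higher and 2 lower, with a median of 0.30. All genes compared there had 493 of 10180 higher, 1162 lower and a median of −0.20. In the Krt14-high members Hbegf was at 44.2 CPM in control and 143 CPM in TP (3.24-fold, 2.52 to 4.21), Epgn at 37.3 and 98.6 CPM, and Nrg1 at 23.0 and 64.3 CPM. Areg had 8 UMIs in control, at 4.98 and 23.7 CPM, and Tgfa was at 6.84 and 23.4 CPM. Hbegf and Areg were past 2-fold in all alternatives run, whereas Epgn, Nrg1 and Tgfa fell short in at least 1. The receptor Egfr was at 346 and 310.5 CPM. In the T cell-marker and melanocyte-marker barcodes Hbegf was at 8.77 and 40.9 CPM, and Nrg1 was lower in TP, at 13.7 and 5.12 CPM.

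Immediate-early genes are induced within minutes of a stimulus and also by tissue dissociation. Of 19 genes 5 were 2-fold higher, with a median of 0.74, and the same list had a median of 0.63 in the T cell-marker and melanocyte-marker barcodes. Fosl1, an AP-1 subunit, was at 16.8 CPM in control and 161 CPM in TP (9.56-fold, 6.51 to 14.6), against 2.63 and 10.2 CPM in those barcodes. Atf3 was at 934 and 1950 CPM, and Klf6 at 242 and 506 CPM, and both were also higher there, Atf3 at 125 and 367 CPM. Atf3, Klf6 and Zfp36 fell short of 2-fold without called doublets (0.87, 0.91 and 0.98 on the log2 scale), and Fosl1 and Egr2 did not (2.94 and 2.29). In resting Krt14-high barcodes 7 of the 19 genes were 2-fold higher with a median of 0.73, beside 196 of 9953 over all genes. In cycling hair barcodes 13 of the 19 were, with a median of 1.67, beside 224 of 10881 over all genes. The part of tissue preparation in these ratios was not tested.

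Genes that respond to steroid receptors were mixed. Of 16 compared, 3 were past 2-fold and the median was 0.48. The T cell-marker and melanocyte-marker barcodes had 3 of 18 higher, 2 lower and a median of 0.09. Their values over all 10180 genes were 493 higher, 1162 lower and a median of −0.20. Without called doublets 1 of the 16 was past 2-fold and the median was 0.33, and with each barcode's own CPM it was 0.22. Zbtb16, a known target of steroid receptors, was at 44.8 CPM in control and 118 CPM in TP, with 23.4 and 74.9 CPM in the T cell-marker and melanocyte-marker barcodes. Fkbp5, a chaperone of these receptors, was at 16.2 and 35.4 CPM, beside 31.6 and 34.9 CPM, and fell short of 2-fold without called doublets (0.94 on the log2 scale). The glucocorticoid receptor gene Nr3c1 was at 164 and 140 CPM.

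**Figure D5:**
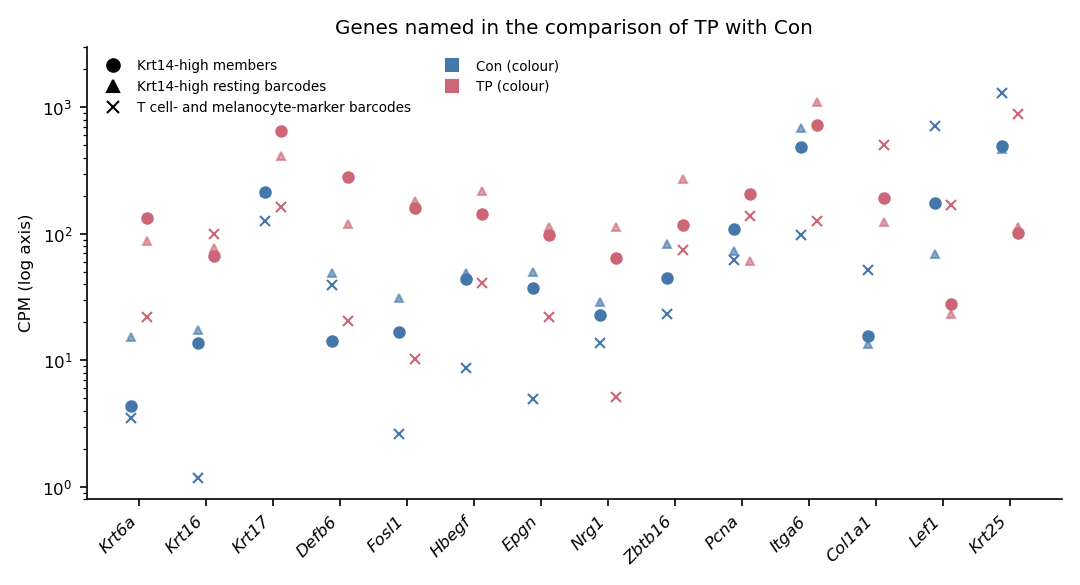
Levels of named genes in CPM on a log axis, in Krt14-high members (circles), resting Krt14-high barcodes (triangles) and T cell-marker and melanocyte-marker barcodes together (crosses), with control (Con) in blue and TP in red. Krt6a goes from 4.36 to 134 CPM, Fosl1 from 16.8 to 161 CPM and Hbegf from 44.2 to 143 CPM in the members, and for Col1a1, Lef1 and Krt25 the crosses lie above the circles.

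Signalling genes of the hair and epidermal lineages were mostly within 2-fold. Of 16 WNT genes, Lef1, a nuclear effector that marks the hair matrix, was the one past 2-fold. It was at 177 CPM in control and 28.1 CPM in TP, and at 708 and 168 CPM in the T cell-marker and melanocyte-marker barcodes. The part of the filter on hair genes, stricter in deeper TP barcodes, in the Lef1 ratio of the members was not tested. Of 10 Notch genes 0 passed 2-fold, with a median of −0.46 against −0.83 in those barcodes. The receptor Notch1 was at 170 CPM in control and 104 CPM in TP and its ligand Jag1 at 89.0 and 49.0 CPM. Among 18 BMP and TGF-beta genes, Inhba was lower, at 34.2 and 4.36 CPM (59.4 and 2.79 CPM in those barcodes), and Fst was higher, at 28.0 and 61.5 CPM, a direction that turned to −0.71 on the log2 scale when barcodes with upper follicle markers were left out.

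In the other lists few genes passed 2-fold. Of 13 genes of G1 cyclins, CDK inhibitors and pocket proteins, 11 chemokines and cytokines and 17 nucleolar genes, none passed 2-fold, and their medians were 0.13, −0.17 and −0.16. Of 13 p53 targets Btg2 was higher (177 to 421 CPM, and 82.4 to 208 CPM in the T cell-marker and melanocyte-marker barcodes), of 12 heat shock genes Dnajb1 (136 to 338 CPM). Of 9 interferon-stimulated genes Bst2 was lower, and of 19 genes of glycolysis and hypoxia Pdk1.

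The largest ratios mixed epidermal genes with markers of other cells. The 12 largest rises in Krt14-high members were Krt6a, Defb6, Tnfaip6, Col1a1, Col1a2, Col3a1, Fosl1, Ccl8, Ccdc80, Phlda1, Egr2 and Sox9. Col1a1 was at 15.6 CPM in control and 191 CPM in TP, and at 51.7 and 507 CPM in the T cell-marker and melanocyte-marker barcodes. Without called doublets its log2 ratio went from 3.56 to 1.53. The 12 largest falls were Cdh6, Dcc, Krt71, Nxpe4, Lef1, Hunk, Ror2, Krt25, Slc30a1, Corin, Plekhg1 and Sox5. Of these Krt25 went from 498 to 101 CPM and Krt71 from 452 to 67.5 CPM. Members had to hold no hair gene UMI, a stricter filter in the deeper TP barcodes, and its part in these falls was not tested. Sox9 had 14 UMIs in control and fell short of 2-fold without upper follicle barcodes (0.84 on the log2 scale).

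Several ratios of the Krt14-high members were also present in the resting Krt14-high barcodes. Hbegf was at 48.9 CPM in control and 219 CPM in TP in resting barcodes, Fosl1 at 30.9 and 183 CPM, and Zbtb16 at 83.0 and 271 CPM, so all 3 were higher in TP in resting barcodes too. Krt6a was at 15.4 and 88.1 CPM in resting barcodes, a ratio of 5.70 (3.80 to 8.97) against 30.7 in members, and Defb6 at 48.9 and 119 CPM. Pclaf, Slbp and Ccdc34 were next by size of difference. The resting class was selected for no cycle gene UMI, a stricter filter in the deeper TP library. Differences of TP to control ratios between the classes were therefore not interpreted for cycle-linked genes. The genes with the largest opposite difference were Cstdc5 (41.7 to 95.9 CPM in members and 14.2 to 149 CPM in resting barcodes), Dach1, Gpc6, Ptprk and Gpnmb. These differences between classes were not tested.

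In cycling hair barcodes, with at least 3 cycle and at least 2 hair genes and at most 1 epidermal gene (1061 in control and 529 in TP), Mki67 was at 1027 and 980.5 CPM, Krt14 at 188 and 373 CPM and Lef1 at 1180 and 864 CPM. Fosl1 was at 1.07 CPM in control (6 UMIs) and 13.5 CPM in TP, and Nrg1, higher in TP in Krt14-high members, was lower there, at 6.98 and 2.47 CPM. Pcna was at 111 and 229 CPM, a TP level above control there too. These class differences were not tested either.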

How the data were processed

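The authors dissociated skin with collagenase, lysed red cells, enriched cells on Percoll and made 10x Chromium GEM-X 3′ libraries. Per the labels and submitters' processing notes, reads were aligned to mm10 and counted with Cell Ranger 8.0.1. The deposited matrices hold UMI counts per gene and barcode, not normalized. Barcodes were kept as the rule states, and UMIs were summed per class and library and scaled to CPM, that is to 1000000 UMIs per class and library. The log2 ratio had 1 UMI added to each library, and a gene had to reach 50 UMIs over both libraries. Members and gene lists were chosen with earlier results of these data known, and the Krt14-high class was added after the data were seen. Named genes were the rule genes, the most abundant or 2-fold changed genes of each list, and the largest ratios among genes with at least 100 UMIs. Nr3c1, Cdc20, Ube2c, Ccnb1, Col17a1, Itga6 and the leading genes of clusters lie outside this rule and were chosen after their values were seen. Shares have exact Clopper-Pearson intervals, and ratios of UMIs have exact conditional binomial intervals. Doublets were called by a nearest-neighbour rewrite of the DoubletFinder procedure, and kept except in an alternative. Clusters came from 2000 variable genes, 30 principal components and Leiden at resolution 0.6. Python 3.11.15, scipy 1.17.1, scikit-learn 1.9.0, python-igraph 0.11.9, R 4.3.3, edgeR 4.0.16 (TMM) and DESeq2 1.42.0 (size factors) were used, and ratios and thinning were tested on simulated data. Alternatives covered scaling, weighting, depth, doublets, filters, thresholds and pseudocount.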

Additional observations from a re-analysis of the deposited data

Results flagged for a closer look

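The genes below had opposite directions in all members and in resting epidermal barcodes, that is, a higher level in TP in one class and a lower level in the other. The difference between the log2 ratios was not tested, since each class had 1 library per condition. The difference (members minus resting) was 4.63 for Ptgds, 3.37 for Slc24a5, 3.08 for Tyrp1 and 2.95 for Trpm1, and −3.64 for Ccl21a. Slc24a5, Tyrp1 and Trpm1 are pigment cell genes. Ptgds had the first place among the leading genes of the cluster that also holds Pmel and Mlana, at 8744 CPM against 18.7 CPM in the other members. In the cluster of members led by Pmel and Mlana, the 12 control barcodes had a median of 3151.5 UMIs and the 11 TP barcodes a median of 18672 UMIs. Ccl21a leads the cluster of 14 members that also holds Pecam1. The part of these clusters in the differences was not tested.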

How the results depend on the processing

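Each condition was 1 library, so no replicate could be left out. No paired analysis was possible because each group had 1 sample. The ratio of TP to control in the share of kept barcodes was 1.43. It was 1.04 with barcodes thinned to 2000 UMIs, 0.657 thinned to 5000 UMIs (the direction turned), 1.63 without called doublets, 1.80 with at least 4 cycle genes, 1.21 with at least 2, 2.04 without Krt10 among the epidermal genes and 1.197 with mitochondrial UMIs at most 5%. The ratio among epidermal-marker barcodes, 0.557, was 0.418 thinned to 5000 UMIs, 0.615 without doublets, 0.703 with at least 4 cycle genes, 0.473 with at least 2 and 0.683 without Krt10. The ratio in Krt14-high barcodes, 0.754, was 0.502 thinned to 5000 UMIs, 0.863 without doublets and 0.967 with at least 4 cycle genes.

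Over all members the 348 higher genes became 585 with TMM, 573 with DESeq2 size factors, 170 thinned to 3000 UMIs, 173 with at least 200 UMIs, 1288 with at least 1 UMI and 94 with a pseudocount of 0.1 per 10000. The 881 lower genes became 583 with TMM, 446 thinned, 441 in barcodes of 5000 to 20000 UMIs, 490 without doublets, 495 without Krt10, 388 with at least 200 UMIs, 4177 with at least 1 UMI and 214 with the pseudocount. The median was 0.074 with TMM and 0.066 with DESeq2. In Krt14-high members the 130 higher genes became 84 thinned, 42 with at least 200 UMIs, 649 with at least 1 and 58 with the pseudocount. The 217 lower genes became 94 thinned, 116 without doublets, 137 with Krt14 and Krt5 at least 1% of UMIs, 37 with at least 200 UMIs, 2826 with at least 1 and 72 with the pseudocount. The median was 0.041 with TMM, 0.054 with DESeq2 and −0.19 with at least 1 UMI.

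Of the single-gene values in Krt14-high members, 547 stayed within their counting interval and 166 left it, leaving out the low-count filters, which cannot move a gene's value. Of the genes past 2-fold, 2 turned direction, Fst (−0.71 without upper follicle barcodes) and Krt17 (−0.91 with Krt14 and Krt5 at least 1% of UMIs). Among genes near 0, Mki67 (−0.05) and Top2a (−0.08) turned with at least 4 cycle genes, and Top2a (−0.02) and Col17a1 (−0.08) without doublets. Over all members, 141 stayed within it and 75 left it. The causes were not tested. Genes with few control UMIs, such as Krt6a, Areg and Egr2, have wide intervals.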
